A study of Arabidopsis thaliana with 12 samples.

Results

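The comparison described here is the first-hour response to dexamethasone (DEX) in young leaves of Arabidopsis thaliana plants that carry 35S::gai-GR, read across every gene of the array. It sets 3 DEX arrays of 1 h against 3 mock arrays of 1 h, 6 of the 12 arrays in the series. All 21428 loci of the table were members, which leaves out only the 64 control probe sets. The DEX group was moved for 1 h to medium with 5 µM dexamethasone, and the mock group was moved for the same time to medium with the solvent DMSO. Both groups were 35S::gai-GR plants of the Col-0 ecotype, 9 days old at transfer, and leaf 3 was the tissue. Matching DEX and mock groups of 4 h, also with 3 arrays each, complete the series. The 3 replicates came from independent experiments. The description gives leaves from 128 plants without saying whether that number is per sample. The transgene is driven by the constitutive 35S promoter and is present in both groups, and plants without it are not analysed here. Each difference therefore measures dexamethasone and gai-GR together.

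DELLA proteins are nuclear repressors of growth that gibberellin removes: the hormone binds its GID1 receptors, which then mark DELLA proteins for breakdown. The gai form lacks the part of the protein that GID1 recognises and so resists breakdown. Fused to the hormone-binding domain of the rat glucocorticoid receptor (GR), it waits in the cytoplasm until dexamethasone lets it enter the nucleus. DELLA proteins do not bind DNA well by themselves and act through partner transcription factors, and plants compensate for high DELLA activity by making more gibberellin and more receptor.

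The values were log2 levels after RMA, which corrects background, aligns the arrays and summarises the probes of a set. Array medians of 1 h lay between 7.65 and 7.69, and the lower quartile of an array, used below as the mark of a level near background, between 5.87 and 5.94. Across loci, DEX arrays correlated with each other at 0.9945 to 0.9951, mock arrays at 0.9964 to 0.9972, and DEX with mock arrays at 0.9933 to 0.9956. These coefficients only describe the arrays, since loci are not independent replicates. The log2 signal of the 3′ over the 5′ ubiquitin control probes, a measure of RNA integrity and labelling, was 1.04 to 1.19 in DEX and 0.85 to 0.97 in mock arrays, so the groups did not overlap. For actin it was 3.08 to 3.23 in DEX and 3.03 to 3.17 in mock arrays, and for GAPDH 0.42 to 0.67 and 0.42 to 0.59, which overlapped; the part of such a shift in the results was not tested. With 3 arrays per group, the number of arrays limits the precision, and the standard error (SE) of a log2 fold change had a median of 0.12. Whole leaves were measured, so fewer cells of a type and less RNA per cell cannot be told apart.

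The first hour was mainly one of rises. By limma with Benjamini-Hochberg adjustment over 21428 loci, 153 loci passed an adjusted p of 0.05, which is 0.714% of those tested: 135 rose (0.63%) and 18 fell (0.084%). At an unadjusted p under 0.05 the directions were closer, with 610 loci above and 458 below mock. Together these 1068 of 21428 loci are about the share that a threshold of 0.05 passes without any effect. They are therefore no count of true changes in either direction. The rises were also larger. Of the 135, 8 exceeded 2 on the log2 scale, 46 lay between 1 and 2 and 81 below 1, with a median log2 fold change of 0.89, while the falls had a median of -0.56 and a single member past 2-fold. All 153 called loci had 3 DEX values beyond all 3 mock values, as did 13.1% of all loci (6.38% with DEX above and 6.71% with DEX below). Loci that rose had a median mock level of 8.07 and those that fell of 9.45, against 7.67 over all loci. In DEX leaves the medians were 9.00 and 8.86, against 7.68 over all loci. Mock is the lower group of every rise and the higher group of every fall, so the order by mock level is partly built in. In both groups the called loci sat above the median locus. When each of the 6 arrays was left out in turn, 79 calls (75 rises and 4 falls) were kept every time and 60 rises and 14 falls dropped out at least once. The total was 105, 90 and 97 without mock 1 h replicate 1, 2 and 3, and 118, 109 and 108 without DEX 1 h replicate 1, 2 and 3. It was 263 without mock 4 h replicate 2, an array with a median of 7.48 that only enters the estimate of the spread.

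**Figure D1:**
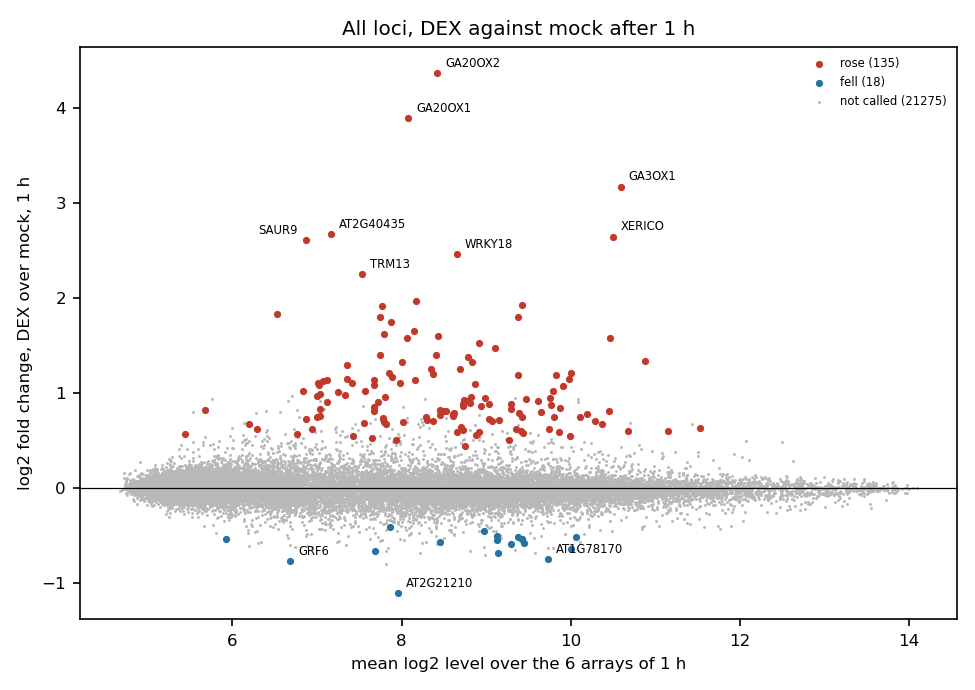
Log2 fold change of DEX over mock after 1 h (vertical axis) against the mean log2 level over the 6 arrays of 1 h (horizontal axis), with 1 point per locus and the 8 largest rises and 3 deepest falls named. The 135 loci that rose reach up to 4.37 and the 18 that fell down to -1.11, around a cloud whose 5th and 95th percentiles are -0.20 and 0.21.

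The plot of all loci shows how far the leading rises stood from the rest. Between the 5th and the 95th percentile, log2 fold changes ran from -0.20 to 0.21, and the median locus stood at -0.00. Of the 135 rises 6 started from a mock level below the lower quartile of every array, where 5272 of 21428 loci lay. A fold change measured from such a level understates the true ratio, because background holds the low group up. This touches AT2G40435, SAUR9, GA20OX3, BBX23, CYCP3;2 and SCPL38. For SCPL38 the DEX mean (5.73, against 5.16 in mock leaves) also lay below that quartile, so its whole rise lay near background. The limma call of SCPL38 ended without any of 5 arrays, with an adjusted p of up to 0.118 without mock 1 h replicate 2.

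Enzymes of the last steps of gibberellin synthesis led the table. GA20OX2 (AT5G51810), a gibberellin 20-oxidase that makes the direct precursors of active hormone, had log2 levels of 10.71, 10.19 and 10.90 in DEX leaves and 6.25, 6.11 and 6.34 in mock leaves. Its sister GA20OX1 (AT4G25420), the main 20-oxidase of stem growth, had 10.02, 9.96 and 10.10 in DEX and 6.01, 6.21 and 6.18 in mock leaves. Every DEX array was thus several log2 units above every mock array for both genes, with log2 fold changes of 4.37 (SE 0.17) and 3.89 (SE 0.16) and an adjusted p of 6.4e-09 each. GA20OX3 (AT5G07200) had 7.78, 7.25 and 7.31 in DEX and 5.63, 5.62 and 5.61 in mock leaves. It was near background in mock leaves and its log2 fold change of 1.83 (SE 0.17) understates the ratio. GA3OX1 (AT1G15550), the 3-oxidase that forms the active hormone, had 12.21, 12.24 and 12.08 in DEX and 9.09, 8.98 and 8.94 in mock leaves, a log2 fold change of 3.17 (SE 0.25, adjusted p = 8.8e-06).

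Calls in the synthesis list fell on these 4 late oxidases. Of 14 members of the synthesis list 4 rose, 0 fell and 10 were not called. Those 10 lay between -0.08 and 0.24, among them GA20OX4, GA20OX5 and the other 3-oxidases. GA20OX4 (5.50 in DEX and 5.52 in mock leaves) and GA20OX5 (5.84 and 5.82) were near background in both groups, where changes are hard to measure. GA3OX3 (5.98 and 6.05) and GA3OX4 (5.89 and 5.97) lay close to that mark. KAO2 (AT2G32440), an oxidase of the middle pathway, had 8.46, 8.86 and 8.67 in DEX and 8.55, 8.37 and 8.34 in mock leaves, groups that overlapped (log2 fold change 0.24, unadjusted p = 0.056). GA3 (AT5G25900), which acts early in the pathway, differed by 0.08 and GA3OX4 (AT1G80330) by -0.08. The list median of 0.07 stood beside -0.00 over all loci.

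Among the genes of gibberellin reception, the receptor GID1B was the called member. GID1B (AT3G63010) had 9.28, 9.83 and 9.92 in DEX and 8.07, 8.13 and 8.26 in mock leaves, with DEX replicate 1 the lowest of its group but above every mock array. The log2 fold change was 1.52 (SE 0.18, adjusted p = 0.00049). GID1A (AT3G05120) had 9.17, 9.12 and 9.36 in DEX and 8.76, 8.75 and 8.65 in mock leaves. Its groups did not overlap either, yet at 0.49 (SE 0.11) it missed the threshold with an adjusted p of 0.078. Of the 5 reception genes 1 rose and 4 were not called, and all 5 had values above 0, with a median of 0.49. SNE (AT5G48170), the F-box relative of the DELLA-degrading SLY1, stood at 0.67 (SE 0.23, adjusted p = 0.49), and SLY1 itself (AT4G24210) at 0.21.

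Genes that inactivate gibberellin were not called by limma in either direction, 0 of 10 measured (2 at an unadjusted p under 0.05), with a median of -0.09 and values from -0.29 to 0.15. The 2-oxidase genes GA2OX2 (AT1G30040) and GA2OX1 (AT1G78440) had the smallest unadjusted p of the list, 0.028 and 0.024, at log2 fold changes of -0.29 and -0.26. The list's median level was 5.88 and 5 of its 10 members lay below the lower quartile in mock leaves, so a fall of those members would be hard to measure. With 0.714% of all loci called, 0 of 10 is near that share.

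Of the DELLA genes, RGA alone was called, and it fell. RGA (AT2G01570, RGA1 in the reference) had 9.81, 9.91 and 9.70 in DEX and 10.31, 10.41 and 10.26 in mock leaves, a log2 fold change of -0.52 (SE 0.10, adjusted p = 0.026). That call was lost without any of 5 of the 6 arrays, with an adjusted p of up to 0.169 without mock 1 h replicate 2. GAI (AT1G14920) had 12.81, 12.89 and 12.85 in DEX and 12.84, 12.82 and 12.92 in mock leaves, which overlapped (log2 fold change -0.01, SE 0.08, adjusted p = 1). RNA from gai-GR may hybridise to this probe set alongside the endogenous transcript, and DEX acts on protein already made, so the level is no check of activation. The other 5 genes of the list, which include RGL2 (AT3G03450, -0.07) and the DELLA modifiers SPY (AT3G11540, 0.12) and SEC (AT3G04240, -0.05), had values from -0.07 to 0.12.

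Of 9 genes known from seedlings as early DELLA targets, 6 rose, where 0.63% of all loci did. None fell (0), 3 were not called and all 9 had values above 0, with a median of 1.02 against -0.00 over all loci. Part of the list comes from other experiments with inducible DELLA proteins, so its direction here is a description. XERICO (AT2G04240), a RING-type protein that raises abscisic acid content, had 11.68, 11.83 and 11.94 in DEX and 9.20, 9.14 and 9.19 in mock leaves. Its log2 fold change of 2.64 had an SE of 0.11, below the median SE of the array. TRM13 (AT2G45900), of a family that recruits proteins to cortical microtubule arrays, had 8.68, 8.70 and 8.59 in DEX and 6.34, 6.47 and 6.42 in mock leaves. The arrays of each group were close together, and the log2 fold change was 2.25 (SE 0.10). SCL3 (AT1G50420), a GRAS protein that opposes DELLA proteins and promotes gibberellin responses, had 11.11, 11.13 and 11.53 in DEX and 9.64, 9.63 and 9.77 in mock leaves, a log2 fold change of 1.58 (SE 0.15).

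The other targets rose less. LBD40 (AT1G67100), a LOB-domain transcription factor, had 7.73, 7.96 and 8.30 in DEX and 6.79, 6.62 and 6.69 in mock leaves (log2 fold change 1.30, adjusted p = 0.0028). AT3G11280, a MYB-like gene, had 8.17, 7.78 and 8.29 in DEX and 7.48, 6.76 and 6.95 in mock leaves (1.02, adjusted p = 0.0065), so DEX replicate 2 stood only slightly above mock replicate 1. BHLH137 (AT5G50915) had 9.17, 8.86 and 8.47 in DEX and 8.03, 8.16 and 8.01 in mock leaves (0.77, adjusted p = 0.016). The call of BHLH137 ended without any of 5 arrays, with up to 0.0925 without mock 1 h replicate 3. The 3 members not called were WRKY27 (AT5G52830) at 0.51 with an adjusted p of 0.059, IQD22 (AT4G23060) at 0.58 and BHLH154 (AT2G31730) at 0.36.

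**Figure D2:**
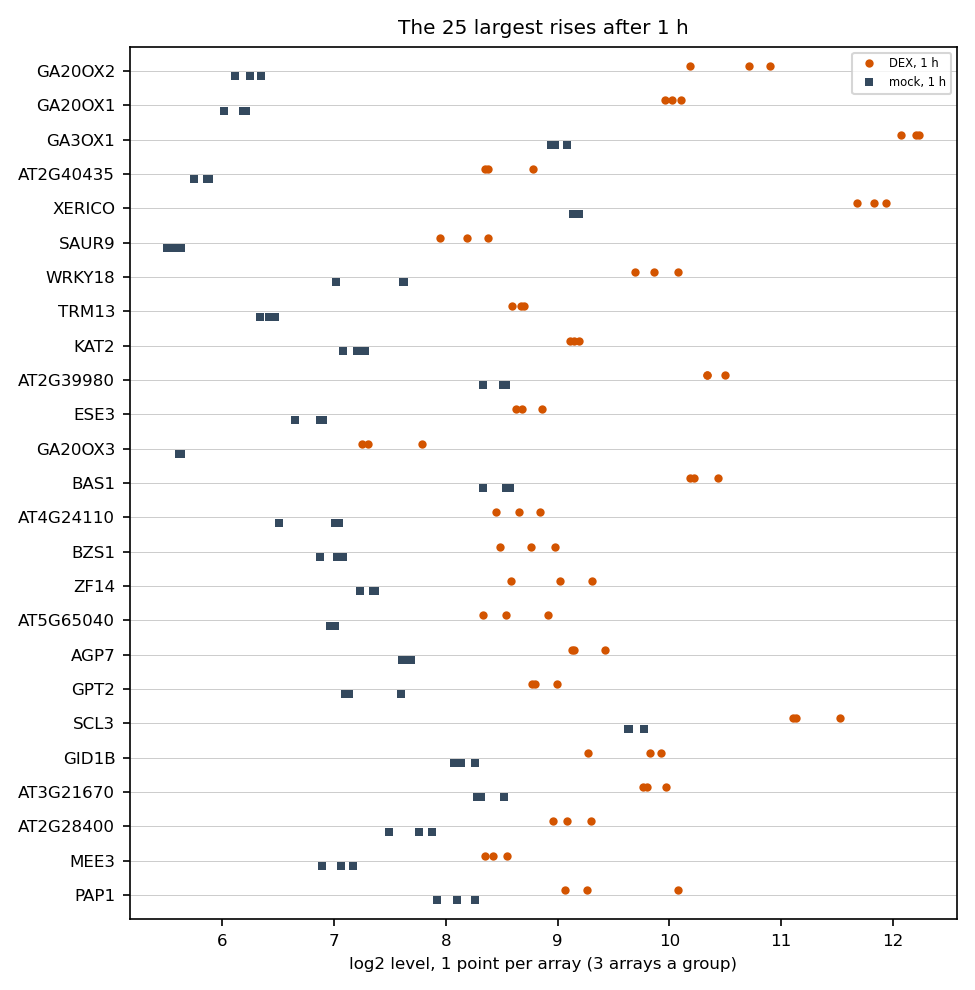
Log2 level on each array for the 25 largest rises after 1 h, with 1 row per gene and the largest rise at the top; circles are the 3 DEX arrays and squares the 3 mock arrays of 1 h. No circle overlaps the squares of its row, and the distance shrinks from 4.37 for GA20OX2 to 1.37 for PAP1.

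The plot of the 25 largest rises places the gibberellin oxidases beside genes of other functions. In PAP1 (AT1G56650), the MYB75 activator of anthocyanin synthesis, DEX replicate 3 stood apart, with 9.27, 9.06 and 10.07 in DEX and 8.26, 8.10 and 7.92 in mock leaves. In WRKY18 (AT4G31800), a transcription factor of defence responses, mock replicate 3 did, with 10.08, 9.86 and 9.69 in DEX and 7.63, 7.61 and 7.02 in mock leaves. WRKY18 kept its call without any array (log2 fold change 2.46, SE 0.18). PAP1 (1.37, SE 0.25, adjusted p = 0.018) lost it without any of 4 arrays, with up to 0.107 without mock 1 h replicate 3.

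Transcription factors of several families were among the rises outside gibberellin metabolism. The WRKY family had 2 rises and 0 falls among 62 measured members, where 0.63% of all loci rose and 0.084% fell. The rises were WRKY18 and WRKY70 (AT3G56400), which sits between salicylate and jasmonate signalling. WRKY70 had 7.74, 8.02 and 8.00 in DEX and 6.98, 6.77 and 6.58 in mock leaves (log2 fold change 1.14, SE 0.14, adjusted p = 0.00077). The remaining 60 WRKY genes lay between -0.32 and 0.51, and WRKY60 (AT2G25000), a close relative of WRKY18, stood at -0.21. In mock leaves 26 of the 62 lay below the lower quartile, where changes are hard to measure. In the touch, wounding and defence list WRKY18 alone of 11 was called, with a list median of -0.11. ZAT12 (AT5G59820), a zinc finger gene of stress responses, stood at -0.35 and TCH4 (AT5G57560), a touch-induced wall enzyme, at -0.27, neither past the test.

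Some AP2/ERF factors were among the rises, and those named here were picked from the calls after their values were seen. ESE3 (AT5G25190), named as inducible by ethylene and salt, had 8.86, 8.68 and 8.63 in DEX and 6.90, 6.65 and 6.87 in mock leaves, a log2 fold change of 1.91 (SE 0.15). DEWAX (AT5G61590), a repressor of cuticular wax genes, had 10.43, 10.39 and 10.45 in DEX and 9.05, 9.29 and 9.35 in mock leaves, a rise of 1.19 (SE 0.11). DEX arrays of both genes were close together and well above mock. ERF12 (AT1G28360) rose by 1.13, ORA59 (AT1G06160), which joins jasmonate and ethylene signals, by 0.98, and TINY (AT5G25810) by 0.57. The cytokinin response factors CRF6 (AT3G61630) and CRF1 (AT4G11140) rose by 0.75 and 0.72. Calls of ORA59, CRF6, CRF1 and TINY ended without 3, 3, 5 and 5 of the 6 arrays, with adjusted p up to 0.0621, 0.0592, 0.0769 and 0.173.

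ERF2 (AT5G47220), an activator of defence genes, was the called member of the ethylene list. It had 9.14, 9.25 and 9.36 in DEX and 8.55, 8.37 and 8.16 in mock leaves (log2 fold change 0.89, SE 0.11, adjusted p = 0.00054). The other 14 members of that list were not called, with values from -0.53 to 0.44 and a list median of 0.02. ACS6 (AT4G11280), an enzyme of ethylene synthesis, stood at -0.45, and the response factors ERF6 (AT4G17490) and ERF11 (AT1G28370) at -0.53 and 0.44. Over the 24 measured genes with an ERF number, ERF12 and ERF2 rose and 0 fell, where 0.63% of all loci rose and 0.084% fell.

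Factors of light and growth signalling rose as well. BZS1 (AT4G39070, also BBX20), a B-box protein of light and brassinosteroid signalling, had 8.77, 8.49 and 8.98 in DEX and 7.03, 6.87 and 7.08 in mock leaves, a log2 fold change of 1.75 (SE 0.14). BBX23 (AT4G10240) rose by 0.81 from a mock level near background. COL2, which fell, is the third called member of the B-box and CONSTANS-like family, while its other 21 measured genes lay between -0.34 and 0.30. MEE3 (AT2G21650), a small RAD-like MYB protein, had 8.42, 8.35 and 8.54 in DEX and 7.06, 7.17 and 6.89 in mock leaves (1.40, SE 0.15). SGR5 (AT2G01940, IDD15), an INDETERMINATE DOMAIN zinc finger of shoot gravitropism, rose by 1.32 (SE 0.14) as the called member of 12 in its family. The DELLA partner GAF1 (AT3G50700, IDD2), looked up after the values were seen, stood at 0.09. BBX23 lost its call without any of 5 arrays, with up to 0.116.

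Smaller rises in this class covered several developmental regulators. OFP1 (AT5G01840), an ovate family repressor, rose by 1.16 (SE 0.16), HSFB4 (AT1G46264), a heat shock factor of root patterning, by 0.94 (SE 0.11), LBD4 (AT1G31320) by 0.94 and the zinc finger gene ZFP4 (AT1G66140) by 0.90. AT3G06590, named AIF2 among its synonyms and an interactor of ATBS1, rose by 0.85. LSH3 (AT2G31160), a gene of organ boundaries, rose by 0.81, and HAT2 (AT5G47370), an auxin-induced homeodomain factor, by 0.80. GNC (AT5G56860), a GATA factor that promotes chlorophyll synthesis, rose by 0.79 as the called member of 20 GATA genes. TEM1 (AT1G25560), a repressor of flowering that is also known to repress gibberellin synthesis genes, rose by 0.77, with 10.42, 10.57 and 10.73 in DEX and 9.99, 9.82 and 9.60 in mock leaves. OFP1, HSFB4 and ZFP4 kept their calls without any array. LBD4, AIF2, LSH3, HAT2, GNC and TEM1 lost theirs at least once, with adjusted p up to 0.129, 0.0517, 0.206, 0.0839, 0.185 and 0.0844.

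Auxin-related genes were called in both directions. SAUR9 (AT4G36110), of the small auxin-upregulated family whose members act on cell expansion, had 8.38, 7.95 and 8.19 in DEX and 5.56, 5.63 and 5.51 in mock leaves. From a mock level near background, that is a log2 fold change of 2.60 (SE 0.14). SAUR36 (AT2G45210), linked to leaf senescence, had 8.35, 8.14 and 8.23 in DEX and 7.32, 7.07 and 6.91 in mock leaves, a rise of 1.14 (SE 0.12). AT4G34770, named SAUR1, had 7.77, 7.62 and 7.31 in DEX and 6.46, 6.53 and 6.39 in mock leaves, a rise of 1.10 (SE 0.13). Its direct neighbour in the reference order, AT4G34760, named SAUR50, fell: it had 9.78, 9.43 and 9.83 in DEX and 10.42, 10.20 and 10.33 in mock leaves (-0.64, SE 0.12, adjusted p = 0.023, up to 0.146 without mock 1 h replicate 1). The deepest fall of the array was also a SAUR gene, AT2G21210, named SAUR6.

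Of 57 measured SAUR genes 3 rose, 2 fell and 52 were not called, with a family median of 0.04. Over all loci 0.63% rose and 0.084% fell. In mock leaves 31 of the 57 lay below the lower quartile, where changes are hard to measure. SAUR genes are short and alike in sequence, so probes of close relatives may not be separate. Among 31 Aux/IAA repressors SHY2 (AT1G04240, IAA3) was called, with 6.77, 6.42 and 6.60 in DEX and 6.02, 6.17 and 5.75 in mock leaves (0.62, adjusted p = 0.027). The call of SHY2 was lost without any of 4 arrays, with up to 0.171. Neither the 19 auxin response factors, the 7 GH3 conjugating enzymes, the 8 PIN genes nor the 3 LAX carriers had a call by limma (0 in each family, and 1, 1, 1 and 0 at an unadjusted p under 0.05), and their values lay between -0.27 and 0.39. With 0.714% of all loci called, 0 is near that share in families of this size. NPY3 (AT5G67440), which acts in auxin-dependent organ formation, rose by 0.58, with up to 0.0579 without mock 1 h replicate 2. ZIFL1 (AT5G13750), a transporter known to support auxin transport, rose by 0.73, with up to 0.0526 without mock 1 h replicate 2.

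Of the brassinosteroid genes, only the inactivating enzyme BAS1 was called among 12. BAS1 (AT2G26710), a cytochrome P450 that hydroxylates brassinosteroids, had 10.22, 10.18 and 10.43 in DEX and 8.34, 8.57 and 8.54 in mock leaves (log2 fold change 1.80, SE 0.12, adjusted p = 2.2e-06). BR6OX2 (AT3G30180), which forms the active hormone, had 9.69, 9.79 and 9.64 in DEX and 9.31, 8.99 and 8.84 in mock leaves. Its groups did not overlap and its 0.66 (SE 0.15) had an adjusted p of 0.067. DWF4 (AT3G50660), an early oxidase, stood at -0.37 and DET2 (AT2G38050) at -0.14, and the list median was -0.02.

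For abscisic acid, 2 of 9 measured receptor genes rose, where 0.63% of all loci did, and 7 were not called. PYL6 (AT2G40330) had 8.84, 8.67 and 8.46 in DEX and 7.86, 8.01 and 7.96 in mock leaves, a rise of 0.71 (SE 0.13, adjusted p = 0.013). PYL5 (AT5G05440) had 9.14, 9.06 and 8.88 in DEX and 8.43, 8.48 and 8.34 in mock leaves, a rise of 0.61 (SE 0.12, adjusted p = 0.036). Neither overlapped between groups, and both calls ended without 5 (PYL6) or 6 (PYL5) of the 6 arrays taken singly, with up to 0.0894 and 0.197. The family of 9 measured receptors had a median of 0.29, and 7 of the 9 had values above 0. In the list of abscisic acid and cold response genes 0 of 13 were called by limma, 0 at an unadjusted p under 0.05, with a median of -0.03. With 0.714% of all loci called, 0 of 13 is near that share. The cold regulator CBF3 (AT4G25480) stood at 0.42 and the dehydration marker RD29A (AT5G52310) at -0.36, and neither had groups that overlapped.

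Of 4 related F-box genes, put together after their values were seen, 3 rose, where 0.63% of all loci did. The KISS ME DEADLY (KMD) proteins carry Kelch repeats and are known to send phenylalanine ammonia-lyase, the entry enzyme of the phenylpropanoid pathway, and type-B cytokinin response regulators to breakdown. KMD2 (AT1G15670) had 8.96, 9.01 and 8.93 in DEX and 7.85, 7.70 and 7.60 in mock leaves, a rise of 1.25 (SE 0.14, adjusted p = 0.00025). KMD4 (AT3G59940) had 9.91, 9.94 and 9.95 in DEX and 9.06, 9.00 and 8.93 in mock leaves, a rise of 0.93 (SE 0.12). DEX arrays of each gene were close together. KMD1 (AT1G80440) had 8.09, 8.23 and 8.18 in DEX and 7.31, 7.29 and 7.20 in mock leaves, a rise of 0.90 whose adjusted p of 0.042 was lost without any of the 6 arrays, with up to 0.195. KMD3 (AT2G44130) overlapped between groups, at 0.01. Other rises tied to protein turnover were WAVH1 (AT2G22680), a ubiquitin ligase of root gravitropism, at 1.01 (adjusted p = 0.021, up to 0.132 without mock 1 h replicate 2) and BT4 (AT5G67480), a BTB and TAZ domain protein, at 0.86.

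Several called genes encode membrane transport proteins. They were picked from the calls after their values were seen, so their number is not a result about transport. KAT2 (AT4G18290), an inward potassium channel of guard cells, had 9.11, 9.20 and 9.15 in DEX and 7.21, 7.08 and 7.27 in mock leaves. The 1 h arrays were tight, and its larger SE of 0.28 beside a log2 fold change of 1.97 (adjusted p = 0.0027) includes the spread at 4 h. The other 5 genes of the guard cell list, which holds the kinase OST1 beside channels, were not called (-0.13 to 0.08). AKT1 (AT2G26650) stood at -0.07 and GORK (AT5G37500), the outward channel, at 0.08. Of the 6 genes of that list 3 lay below the lower quartile in mock leaves, where changes are hard to measure. Stomatal lineage markers ran from -0.08 to 0.10 with 0 of 7 called by limma. SLAH2 (AT4G27970), an anion channel of the SLAC1 family, had 7.84, 7.49 and 7.59 in DEX and 6.44, 6.52 and 6.57 in mock leaves, a rise of 1.13 (SE 0.12).

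Carriers of sugars and nutrients followed. SUC1 (AT1G71880), a sucrose-proton symporter, had 9.47, 9.59 and 9.43 in DEX and 8.11, 8.24 and 8.15 in mock leaves (1.33, SE 0.11). GPT2 (AT1G61800), which carries glucose 6-phosphate into plastids, had 8.80, 8.77 and 9.00 in DEX and 7.14, 7.60 and 7.10 in mock leaves. Its 1.58 (SE 0.28, adjusted p = 0.013) was lost without any of 4 arrays, with up to 0.0806 without mock 1 h replicate 1. AT3G21670, named NPF6.4, of the nitrate and peptide transporter family, had 9.97, 9.77 and 9.80 in DEX and 8.28, 8.52 and 8.31 in mock leaves (1.47, SE 0.11). AT1G68570, named NPF3.1, known to carry gibberellin in roots, had 9.65, 9.55 and 9.92 in DEX and 8.66, 9.08 and 8.89 in mock leaves (0.83, SE 0.12, adjusted p = 0.0027). Both kept their calls without any array.

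Sulfate, dicarboxylate, ammonium and calcium transport genes were also among the rises. AST91 (AT1G23090), also named SULTR3;3, had 9.43, 9.27 and 9.25 in DEX and 7.99, 8.05 and 8.18 in mock leaves (1.25, SE 0.12). Its 4 relatives of the SULTR3 group, looked up afterwards, were not called and lay between -0.36 and 0.20. TDT (AT5G47560), the vacuolar malate carrier, rose by 0.68 and its neighbour AT5G47550 by 0.71, the other adjacent pair of called loci. ERD6 (AT1G08930), a sugar carrier, rose by 0.71, AMT2 (AT2G38290) by 0.55 and the vacuolar calcium exchanger CAX1 (AT2G38170) by 0.59. ZF14 (AT1G58340), a MATE-type carrier whose activation is known to alter leaf and shoot growth, had 8.58, 9.31 and 9.02 in DEX and 7.35, 7.37 and 7.23 in mock leaves (1.65, SE 0.20). ABCG4 (AT4G25750) rose by 0.83 and ABCG19 fell, the called members among 39 ABCG transporters. Calls of AT5G47550, CAX1, AMT2 and ABCG4 ended without 5, 5, 1 and 4 arrays, with up to 0.134, 0.194, 0.0534 and 0.143.

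Genes of the cell wall and surface gave single calls within large families. XTH15 (AT4G14130), a xyloglucan-modifying enzyme, had 10.01, 9.91 and 10.00 in DEX and 8.93, 8.81 and 8.63 in mock leaves, a rise of 1.19 (SE 0.12). The other 32 XTH genes lay between -0.35 and 0.55, and of the 33 in all 12 lay below the lower quartile in mock leaves. Limma called 0 of 21 expansins and 0 of 10 cellulose synthases (2 and 0 at an unadjusted p under 0.05). Those 0 calls are near the share over all loci, 0.714%. AGP7 (AT5G65390), an arabinogalactan protein, had 9.42, 9.15 and 9.13 in DEX and 7.62, 7.69 and 7.61 in mock leaves, a rise of 1.59 (SE 0.14). The wall genes AT2G26440, named PME12 and a pectin methylesterase, TBL37 (AT2G34070) and DGR2 (AT5G25460) rose by 0.75 each, and only DGR2 kept its call without any array, the others reaching 0.193 and 0.0670. On the lipid side, FAO3 (AT3G23410), a fatty alcohol oxidase, rose by 0.88 and XF1 (AT1G58440), the squalene epoxidase of sterol synthesis, by 0.87 (SE 0.09), while KCS1, an elongase of very long fatty acids, fell.

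Metabolic enzymes and conjugating enzymes rose by smaller amounts. PGM (AT1G78050), a phosphoglycerate mutase, had 10.46, 10.59 and 10.77 in DEX and 9.37, 9.44 and 9.38 in mock leaves (1.21, SE 0.11). UGT85A1 (AT1G22400), which glucosylates cytokinins, rose by 0.84 (SE 0.09, adjusted p = 0.00023) and UGT74F2 (AT2G43820), a salicylate glucosyltransferase, by 0.73, the called members among 59 UGT genes. LBO1 (AT3G21420), an oxidoreductase of strigolactone synthesis, rose by 0.81, the nudix hydrolase NUDX25 (AT1G30110) by 0.96 and the polyamine oxidase PAO4 (AT1G65840) by 0.67. The threonine aldolase THA1 (AT1G08630) rose by 0.59 and CYP71B26 (AT3G26290) by 0.55. UGT74F2, LBO1, NUDX25, THA1 and CYP71B26 lost their calls at least once, with up to 0.0563, 0.0579, 0.0584, 0.214 and 0.253. CYP71B26, with an adjusted p of 0.0447, was the last locus inside the threshold, and AUF1 (AT1G78100, 0.74, adjusted p = 0.0507) the first outside.

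Receptor-like kinases and signalling proteins completed the named rises. RLK7 (AT1G09970, LRR XI-23 in the reference), a receptor of a stress peptide, had 9.00, 9.01 and 8.98 in DEX and 8.27, 8.20 and 8.19 in mock leaves (0.78, SE 0.09, adjusted p = 0.00036). WAK1 (AT1G21250), a wall-associated kinase, rose by 0.69 (SE 0.10), SD2-5 (AT4G32300) by 0.52 and CLV1 (AT1G75820), the receptor that limits the shoot meristem, by 0.51. RLK7 and WAK1 kept their calls without any array, while SD2-5 and CLV1 lost theirs without 5 and 6 of the arrays (up to 0.175 each). The 4 were grouped after their values were seen. EDA39 (AT4G33050, also IQM1), a calmodulin-binding protein, rose by 1.21 (SE 0.16) and NAKR2 (AT2G37390) by 0.89 (SE 0.13). WNK2 (AT3G22420), a kinase without the usual lysine, rose by 0.64 and RIC7 (AT4G28560), an effector of ROP GTPases, by 0.51, with up to 0.0629 and 0.166. CYCP3;2 (AT3G60550), a P-type cyclin, rose by 0.68 from near background (adjusted p = 0.0435, up to 0.215 without mock 1 h replicate 2).

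Of the 153 called loci 63 have no symbol of their own in the reference, and some of the largest rises are among them. AT2G40435 had 8.78, 8.35 and 8.38 in DEX and 5.88, 5.87 and 5.75 in mock leaves. It was the fourth largest rise of the array (log2 fold change 2.67, SE 0.19), from a mock level near background. AT2G39980 had 10.34, 10.34 and 10.49 in DEX and 8.51, 8.54 and 8.34 in mock leaves, a rise of 1.93 (SE 0.17). AT4G24110 had 8.65, 8.84 and 8.45 in DEX and 7.01, 7.04 and 6.51 in mock leaves, a rise of 1.79 (SE 0.19). AT5G65040, whose synonym IRM1 refers to aphid resistance, had 8.33, 8.54 and 8.92 in DEX and 7.00, 6.96 and 6.97 in mock leaves. That rise of 1.62 (SE 0.15) joined a very narrow mock group to a wide DEX group. AT2G28400 had 8.96, 9.09 and 9.30 in DEX and 7.88, 7.76 and 7.49 in mock leaves (1.40, SE 0.13), and AT5G14120 rose by 1.33 (SE 0.10, adjusted p = 4.9e-06).

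The 18 falls were fewer and smaller than the rises. AT2G21210 (SAUR6) had 7.25, 7.23 and 7.71 in DEX and 8.55, 8.43 and 8.54 in mock leaves, a log2 fold change of -1.11 (SE 0.16, adjusted p = 0.0021) and the single fall past 2-fold. AT1G78170 had 9.35, 9.25 and 9.46 in DEX and 10.06, 10.10 and 10.14 in mock leaves (-0.75, SE 0.10, adjusted p = 0.00095). AT1G23390 had 8.69, 8.77 and 8.95 in DEX and 9.66, 9.31 and 9.49 in mock leaves (-0.69, SE 0.11). With COL2 (AT3G02380), a CONSTANS-like zinc finger protein at 8.92, 9.05 and 9.03 in DEX and 9.72, 9.48 and 9.58 in mock leaves (-0.59, SE 0.09), these were the 4 falls kept without any array.

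Of the 16 named falls 7 were transcription regulators, RGA and COL2 included. The share of such genes over all loci was not counted, so their number is not a result about transcription regulators. GRF6 (AT2G06200), a growth-regulating factor of leaf cell proliferation, had 6.34, 6.29 and 6.28 in DEX and 6.97, 7.26 and 6.98 in mock leaves (-0.77, SE 0.14, adjusted p = 0.013). Its DEX arrays were nearly equal. TCP17 (AT5G08070), a class II TCP factor of leaf differentiation, had 7.09, 7.42 and 7.55 in DEX and 7.84, 8.01 and 8.21 in mock leaves (-0.67, SE 0.14), the called member of 16 TCP genes. HB5 (AT5G65310), a homeodomain factor linked to abscisic acid responses, had 8.70, 8.97 and 8.90 in DEX and 9.32, 9.46 and 9.43 in mock leaves (-0.55, SE 0.10). CUC3 (AT1G76420), a NAC factor that sets organ boundaries, had 5.83, 5.62 and 5.52 in DEX and 6.13, 6.23 and 6.21 in mock leaves. Its DEX level was near background, so the log2 fold change of -0.54 (adjusted p = 0.027) understates the fall. MYB3 (AT1G22640), a repressor of phenylpropanoid genes, had 7.68, 7.61 and 7.67 in DEX and 8.08, 7.98 and 8.12 in mock leaves (-0.41, SE 0.08, adjusted p = 0.038). GRF6, TCP17, HB5, CUC3 and MYB3 lost their calls without 3, 4, 4, 5 and 6 of the arrays, with up to 0.102, 0.217, 0.123, 0.150 and 0.224; grouping them was done after their values were seen.

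The remaining named falls were ABCG19, KCS1 and loci without a symbol. ABCG19 (AT3G55130), a transporter known for kanamycin resistance, had 9.08, 9.25 and 9.12 in DEX and 9.62, 9.66 and 9.91 in mock leaves (-0.58, SE 0.11). KCS1 (AT1G01120) had 8.77, 8.68 and 8.78 in DEX and 9.26, 9.20 and 9.15 in mock leaves (-0.46, SE 0.09). AT1G32690 had 8.30, 8.07 and 8.13 in DEX and 8.74, 8.83 and 8.64 in mock leaves (-0.57). In each of these the DEX arrays lay wholly below mock by a small margin. AT4G30470 had 9.27, 8.91 and 9.18 in DEX and 9.76, 9.56 and 9.59 in mock leaves (-0.52), and AT2G47440 had 8.87, 8.97 and 8.77 in DEX and 9.47, 9.23 and 9.43 in mock leaves (-0.51). The calls of these 5 loci ended without 4 to 6 of the arrays, with up to 0.114 for ABCG19 and 0.158 to 0.244 for the others. A further 2 called loci share all their values and are not named.

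**Figure D3:**
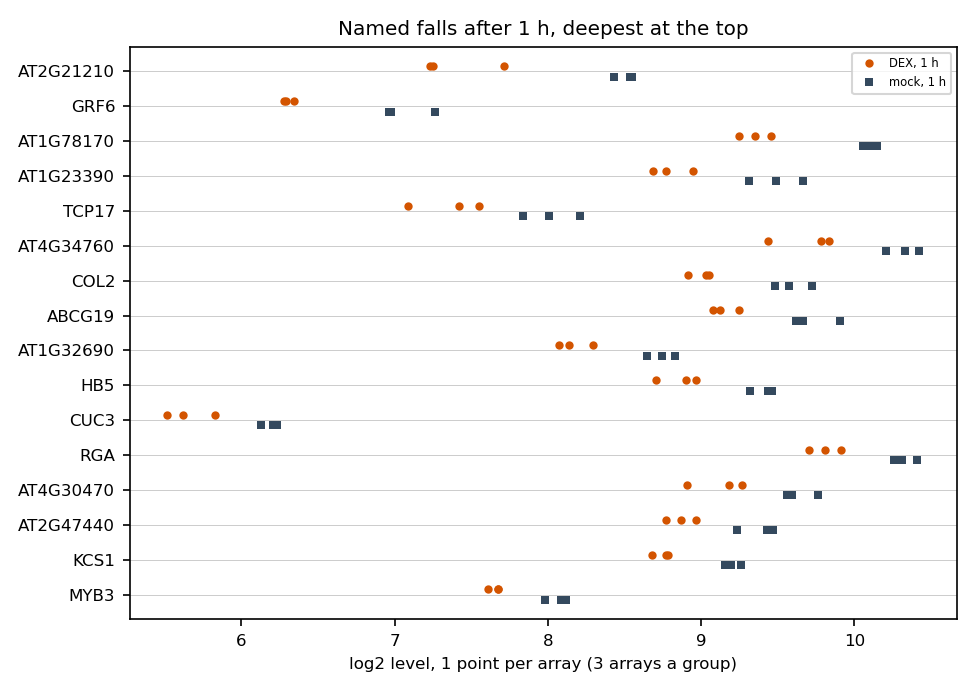
Log2 level on each array for the 16 named falls after 1 h, with 1 row per gene and the deepest fall at the top; circles are the 3 DEX arrays and squares the 3 mock arrays of 1 h. Every circle lies left of the squares of its row, by -1.11 in AT2G21210 and -0.41 in MYB3 as log2 fold changes of the means.

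The plot of the falls shows separations of less than 1 log2 unit in all rows but the first. RGA lies among them in level and in size. The falls covered levels from 5.65 (CUC3 in DEX leaves) to 10.33 (RGA in mock leaves).

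Lists of the growth machinery had few or no calls at 1 h. Over all loci 0.714% were called, so 0 calls in lists of this size is near that share. Of 15 DNA replication genes 0 were called by limma (0 at an unadjusted p under 0.05), with values from -0.19 to 0.11 and a median of -0.06. The nucleotide reductase gene TSO2 (AT3G27060) stood at -0.14 and CDC6 (AT2G29680), which licenses replication origins, at -0.19. Of 15 mitotic genes 0 were called by limma (1 at an unadjusted p under 0.05), with CYCB2;2 (AT4G35620) at -0.31. Of 13 CDK inhibitors and endoreduplication genes 0 were called by limma (0 at an unadjusted p under 0.05), with KRP4 (AT2G32710) at 0.36. In the leaf growth list GRF6 fell and 15 of 16 were not called, with a median of 0.03. Its relatives GRF5 (AT3G13960, 9.72, 9.84 and 9.64 in DEX and 9.44, 9.42 and 9.53 in mock leaves, 0.27) and GRF7 (AT5G53660, 0.45) stood on the other side of 0, with unadjusted p of 0.016 and 0.0066. NUB (AT1G13400), a zinc finger gene of leaf blade growth, stood at 0.47.

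Growth-promoting bHLH genes were not called at this time. The same holds for the jasmonate and clock lists, and with 0.714% of all loci called, 0 is near that share for each. In the bHLH and shade list limma called 0 of 13 (4 had an unadjusted p below 0.05), with a median of 0.03. HBI1 (AT2G18300), an activator of elongation, came closest, at 6.55, 6.57 and 6.62 in DEX and 7.33, 7.16 and 7.09 in mock leaves, groups that did not overlap (-0.61, SE 0.14, adjusted p = 0.073). PRE1 (AT5G39860) stood at -0.34 and PIF4 (AT2G43010), a factor that DELLA proteins bind, at -0.27. Of 13 jasmonate genes 0 were called by limma (1 at an unadjusted p under 0.05), with JAZ6 (AT1G72450) at 0.60 and an adjusted p of 0.098. Of 10 clock genes 0 were called by limma (2 at an unadjusted p under 0.05), with RVE1 (AT5G17300) at -0.38 and CCA1 (AT2G46830) at -0.26.

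In the anthocyanin and phenylpropanoid list PAP1 rose and the other 15 genes were not called at 1 h, with a median of -0.02. PAP2 (AT1G66390), the closest relative of PAP1, had 7.42, 7.26 and 7.88 in DEX and 6.58, 7.01 and 7.10 in mock leaves, without overlap (0.62, SE 0.16, adjusted p = 0.16). PAL1 (AT2G37040), a phenylalanine ammonia-lyase, stood at 0.29. At 4 h, 13 of the 16 rose, and PAL1 stood at 2.80.

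**Figure D4:**
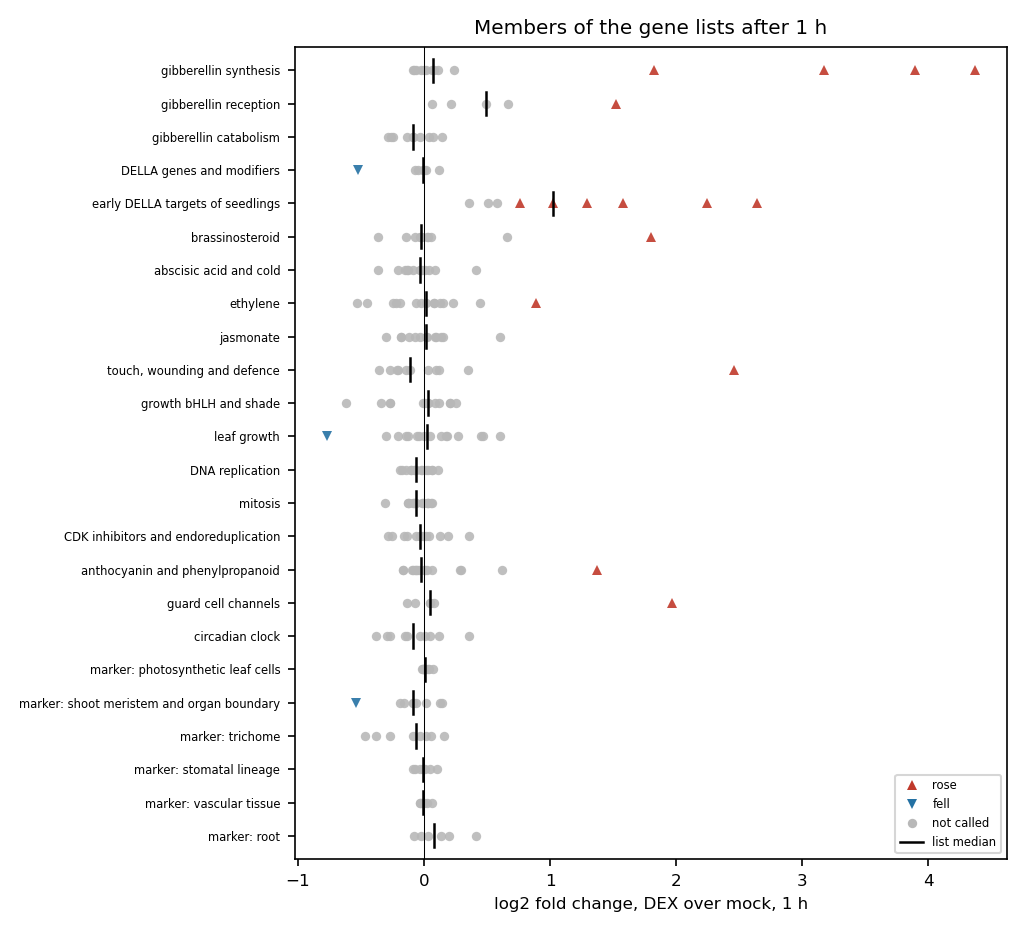
Log2 fold change of DEX over mock after 1 h (horizontal axis) for the measured members of the 24 gene lists (1 row per list); triangles are members that rose or fell by limma, grey circles members not called, and black bars list medians. Only the early DELLA targets and gibberellin reception have medians above 0.1, at 1.02 and 0.49.

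The plot of the lists shows that most lists with a call held a single called member apart from the others. Gibberellin synthesis, with 4 rises, and the early targets, with 6, were the exceptions. The lists were compiled with earlier results of these arrays known, so their counts are descriptions. With 0.714% of all loci called, a list of this size without a call, the marker lists included, is near the share over all loci.

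Marker lists of cell types showed the tissue and little movement. The 8 photosynthetic leaf genes had a median level of 13.51, near the top of the scale of 14.1, and values from -0.01 to 0.07. Their summed level was 108.5 on every DEX array and 108.3 to 108.4 on mock arrays. Of the shoot meristem and organ boundary genes CUC3 fell and 8 of 9 were not called; the median level was 5.94, and WUS (AT2G17950), which defines the meristem centre, had 5.47, 5.57 and 5.43 in DEX and 5.24, 5.30 and 5.50 in mock leaves, near background in both. The summed level of that list was 54.2 to 55.0 in DEX and 55.2 to 55.7 in mock leaves, and its part in the fall of CUC3 was not tested. Trichome genes had 0 calls of 8 by limma (unadjusted p below 0.05 in 1), with a median of -0.06 and MYB23 (AT5G40330) at -0.47. Summed, they had 66.7 to 68.4 in DEX and 67.5 to 69.7 in mock leaves. Stomatal lineage, vascular and root markers had 0 calls of 7, 6 and 6 by limma (unadjusted p below 0.05 in 0, 0 and 1). Their medians were -0.00, -0.00 and 0.08, with SCR (AT3G54220), a factor also active in leaf bundle sheath, at 0.41 the highest.

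Nearly all first-hour changes were still present at 4 h. Of the 135 rises 130 were also called as rises at 4 h (96.3% of them, where 5.35% of all loci rose at 4 h). They were 11.3% of the 1146 rises of 4 h, where 0.63% of all loci rose at 1 h. Of the 18 falls 16 were also falls at 4 h (88.9% of them, where 2.55% of all loci fell at 4 h). They were 2.93% of the 547 falls of 4 h, where 0.084% of all loci fell at 1 h. Of the 153 loci 0 were called in the opposite direction at 4 h. The arrays of the 2 times are separate, so no control is shared. The fit does share 1 estimate of the spread per locus, so calls at the 2 times are not independent. A locus with a small shared spread passes more easily at both. The median spread within groups was 0.107 at 1 h and 0.161 at 4 h. The 5 rises not called at 4 h were bHLH071 (AT5G46690), SHY2, RIC7, AT3G16330 and AT3G54000, and the 2 falls COL2 and AT4G30470. COL2 was at 6.58 in DEX and 6.83 in mock leaves at 4 h (log2 fold change -0.25), far below its levels of 1 h in both groups. bHLH071 had 9.71, 9.72 and 9.98 in DEX and 8.96, 9.28 and 8.92 in mock leaves at 1 h (0.75), and its difference was 0.28 at 4 h; its 1 h call ended without any of 3 arrays, with up to 0.0602. None of these 7 passed the test of a change between the times.

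Where the response did differ between the times, it was larger at 4 h. The test of the 4 h minus the 1 h log2 fold change passed for 274 loci (1.28%), and for 39 of the 153 called at 1 h: 37 rises were larger at 4 h, 0 were smaller and 2 falls were deeper. Without regard to the test, 106 rises were larger and 29 smaller at 4 h, and the median rise was 0.89 at 1 h and 1.43 at 4 h. Among the 39, GA20OX3 and PAP1 gained most, while WRKY18 had a log2 fold change of 2.46 at both times. GA20OX1 stood at 3.89 and 4.14, and BAS1 at 1.80 and 1.45. For these 3 the change did not pass (adjusted p = 1, 0.75 and 0.47). The 2 falls that deepened were AT1G23390 and AT2G47440.

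**Figure D5:**
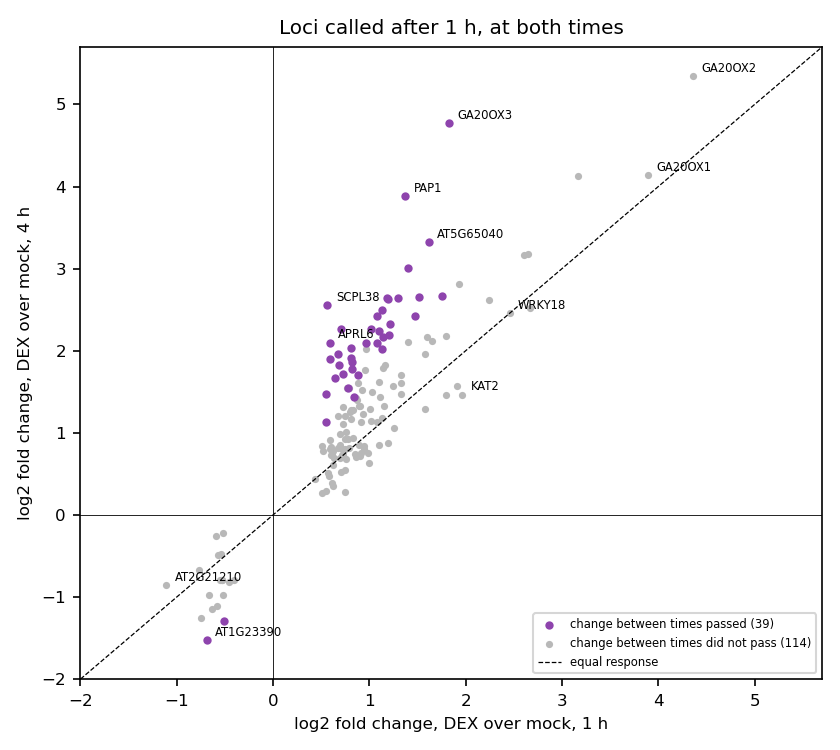
Log2 fold change of DEX over mock after 4 h (vertical axis) against that after 1 h (horizontal axis) for the 153 loci called at 1 h, with 1 point per locus; purple points are the 39 whose change between the times passed the test. All points lie above 0 at both times or below 0 at both, and every purple point lies farther from 0 at 4 h than at 1 h, as in GA20OX3 (1.83 and 4.78).

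The plot of both times places WRKY18 on the line of equal response and KAT2 (1.97 and 1.47) below it, while most rises lie above the line. Called loci were spread over all chromosomes, from 0.496% of the loci tested on chromosome 3 to 0.855% on chromosome 1.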

How the data were processed

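RNA of leaf 3 was hybridised to Affymetrix ATH1 arrays, 12 in all and 3 per group. The table deposited by the authors holds log2 levels, 1 per probe set and array, from RMA per the submitters' processing notes; its version and the probe set definition are not given in the sources used here. Of 21492 probe sets the 64 controls were left out of tests, and the other 21428, 1 per locus, entered without a filter on level. The reference (TAIR10.1) named 21231, of which 9006 had a symbol of their own; 221 loci share their values with another and are not named. It served for names and neighbour order only. Identical arrays were looked for and 0 pairs found.

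A mean per group was fitted to all 12 arrays with limma 3.58.1 in R 4.3.3 (8 residual and 5.85 prior degrees of freedom). Contrasts were DEX minus mock at 1 h, at 4 h, and their difference, two-sided, with Benjamini-Hochberg adjustment over 21428 loci and a threshold of 0.05. The SE is limma's, after moderation. A level near background means a group mean below the lower quartile of every 1 h array. Replicates are independent experiments per the description. The main fit did not pair samples by these numbers. Deviations from the group mean of same-numbered DEX and mock arrays correlated at 0.039, 0.059 and 0.193 at 1 h. Only replicate 3 passed the minimum of 0.1 set for pairing. Such correlations cannot show whether same-numbered arrays came from the same experiment, and a replicate block was run as an alternative.

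Any locus called at 1 h that stands for exactly 1 gene could be named. Array values were given for the 25 largest rises, all named falls, GAI and RGA and called list members, and up to 3 uncalled members of a list were named by their unadjusted p. The array values of other genes, AUF1, and the genes said to be grouped or looked up afterwards were added once values were seen. The 24 lists hold 293 members, 257 of them measured; for 288 members symbol and locus match in the reference, and the other 5 were taken by locus. Another 43 families were taken by symbol. Members, lists and tests were chosen with earlier results of these data known. Promoter motifs were planned but promoter sequences were not used here. Alternatives were other arrays in the fit, a replicate block, normalizations, spread models, filters and thresholds. On simulated data of 21428 genes for the 1 h comparison, the test found 35 of the 67 genes given a log2 change of 0.5, 67 of the 67 given 1 and 66 of the 66 given 2. Of its 179 calls, 11 were false. The simulated noise was normal, independent between arrays and of equal spread in all 4 groups. On the real arrays the median spread within groups was 0.107 at 1 h and 0.161 at 4 h. The simulated counts therefore need not hold for the real arrays. Figures were drawn with matplotlib 3.10.9.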

Additional observations from a re-analysis of the deposited data

Results flagged for a closer look

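For 39 loci called at 1 h, the DEX response itself differed between 4 h and 1 h by limma's test of the difference. Each value below is the 4 h minus the 1 h log2 fold change.

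Genes described above that grew include several of gibberellin and growth biology. GA20OX3 gained 2.95 (1.83 at 1 h and 4.78 at 4 h, adjusted p = 2.1e-05), PAP1 2.51 (adjusted p = 0.0025) and GID1B 1.14 (adjusted p = 0.047). Among transcription factors, MEE3 gained 1.61, LBD40 1.35, AT3G11280 1.25, BBX23 0.97 and BZS1 0.92. Among wall, surface and metabolic genes, XTH15 gained 1.46, THA1 1.31, PGM 1.12, LBO1 1.10, CYP71B26 0.92, FAO3 0.82 and UGT85A1 0.60. Transport genes that gained were SLAH2 with 1.37, AT3G21670 with 0.95 and AMT2 with 0.58. CYCP3;2 gained 1.29, SAUR36 1.03, WNK2 1.03, EDA39 0.99 and RLK7 (LRR XI-23) 0.77.

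SCPL38 (AT2G05850), named as a serine carboxypeptidase-like gene, gained 2.00 from 0.56 at 1 h (adjusted p = 1.6e-05). At 1 h it was near background in both groups. APRL6 gained 1.51 and TPR12 1.13. Loci without a symbol gained as well: AT5G65040 1.71, AT5G47550 1.56, AT4G15160 1.43, AT4G04630 1.35, AT1G28190 1.23, AT5G42830 1.14, AT1G65920 1.14, AT1G70000 1.04, AT1G52770 1.01, AT3G60290 0.99 and AT5G36960 0.89. The changes of AT2G47440 and AT1G23390 were -0.79 and -0.84, so those falls deepened.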

How the results depend on the processing

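With each of the 6 arrays of 1 h or mock 4 h replicate 2 left out in turn, 90 to 263 loci were called at 1 h. Of these, 86 to 219 rose and 4 to 44 fell. The other 4 h arrays were not left out for this count. The test of the difference between the times, with each of the 12 arrays left out, called 170 to 412. That test called 170 without mock 1 h replicate 1 or 2, 175 without mock 1 h replicate 3, 174 without DEX 1 h replicate 2 and 412 without mock 4 h replicate 2. With the 1 h arrays alone 251 were called, 208 of them rises and 43 falls. Array weights gave 378 (281 rises and 97 falls, so 74.3% of calls rose against 88.2%). An adjusted p of 0.01 left 96 loci with 4 falls, and a minimum of 2-fold left 55, with 54 rises and 1 fall. Whether the replicate numbers pair the arrays is not settled by the correlations given in the methods. At 4 h those correlations were -0.01, 0.19 and 0.10. With the replicate block 153 loci were called, 142 of them shared with the fit without it, and 267 for the difference between times; with the block on the 1 h arrays alone there were 41 falls. None of the 151 named calls reversed its direction under the alternatives run for them. The median over all loci, -0.0035, was 0.0012 without DEX 1 h replicate 3. Of the list medians compared, 36 of 384 changed sign, in 16 lists whose medians lay within 0.11 of 0, 14 of 384 moved beyond the replicate spread, and 51 of 384 list counts of calls changed by over 1.5 times. The cause was not tested for these shifts. Probes near background limit what can be read of low genes.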
